A study of Mus musculus with 6 samples.

Results

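The genes described here encode 10 parts of the cytoskeleton that megakaryocytes use to make platelets, out of 46603 genes listed in each deposited file. They were taken from a list of symbols, matched to the files' Ensembl identifiers through the GRCm38 annotation, and all 10 passed the filter on low counts. The list has 2 classes: 4 genes named as platelet-restricted (Tubb1, Tuba8, Myl9 and Cavin2) and 6 general cytoskeletal genes (Tpm4, Actn1, Flna, Myh9, Tln1 and Vcl). Total RNA of whole bone marrow was sequenced from 3 mice lacking nuclear myosin 1, called NM1 KO, and from 3 wild-type mice, called NM1 WT. All 6 mice were of the C57/Bl6 strain and 8 months old, no treatment is given, and each library comes from 1 mouse, whose thigh and shin bones were cleaned of muscle and centrifuged to collect the marrow. Nuclear myosin 1 is made from the gene Myo1c as an isoform, and counts per gene sum all isoforms of that gene.

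Platelets are shed by megakaryocytes, which push long extensions called proplatelets into the sinusoids of the marrow. Sliding and bundled microtubules drive the extensions, and the β-tubulin isotype encoded by Tubb1 forms the marginal microtubule coil that keeps a resting platelet flat. Non-muscle myosin II, actin filaments with their crosslinkers, and a membrane reserve folded inward from the cell surface set when and how proplatelets form and branch. Inherited macrothrombocytopenia, with few and large platelets, is known in humans for TUBB1, MYH9, FLNA, ACTN1 and TPM4.

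In NM1 KO marrow 3 of the 4 platelet-restricted genes were higher than in NM1 WT marrow: Myl9 rose 2.69-fold, Tubb1 2.60-fold and Cavin2 2.27-fold. The fourth, Tuba8, did not pass the test, with a fold of 1.09. None of the 6 general genes passed, although Tpm4, with a fold of 1.78, had no overlap between the genotypes. Folds are ratios of the mean CPM in NM1 KO marrow to that in NM1 WT, where CPM is the TMM-scaled count relative to the library total, and the test was edgeR's quasi-likelihood test with a Benjamini-Hochberg threshold of 0.05 over 15069 tested genes. Of all tested genes, 0.776% passed, 0.591% as higher and 0.186% as lower in NM1 KO. In 4 of the 10 genes all NM1 KO values lay above all NM1 WT values, which was so for 10.8% of all tested genes (20.5% had no overlap in either direction). Of the 10 genes 6 had a positive log2 fold change, against 50.2% of all tested genes. Whole marrow was sequenced. A larger share of megakaryocytes and platelets, a wider shift in the cells collected and more RNA per cell therefore cannot be told apart. Lists of other marrow cells, given below, also moved: the median log2 fold change was 1.20 for stromal and -0.47 for neutrophil markers.

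Library totals lay between 21101616 and 22618802 counts in NM1 KO and between 15145052 and 17580660 counts in NM1 WT, and 1 CPM stood for 14.7 to 23.0 counts. Myo1c had 73.8, 59.1 and 59.7 CPM in NM1 KO marrow against 89.8, 115 and 102 CPM in NM1 WT marrow, and did not pass (adjusted p = 0.0516, edgeR). As this level sums the isoforms, it does not check the deletion itself. The summed level of 10 neutrophil genes, the main granulocyte signal of marrow, was 38204 to 49615 CPM in NM1 KO marrow and 49614 to 67750 CPM in NM1 WT marrow. On the first principal component, with 37.5% of the variance, NM1 WT 1 and NM1 WT 3 stood at 53.4 and 44.1. NM1 WT 2 stood there at -4.39 and the NM1 KO libraries between -53.6 and -19. NM1 WT 2 stood apart from the other libraries on the second principal component (-61.8, against 4.45 to 20.6), with 21.4% of the variance. The genotypes were mixed for Y-linked transcripts: the summed level of 4 Y-linked genes, here per library total without TMM scaling, was 202 CPM in library NM1 KO 1, 175 CPM in library NM1 KO 2, 155 CPM in library NM1 WT 2 and 0 in the other 3. The labels give no sex.

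Tubb1 (ENSMUSG00000016255, chr2:174450695-174457882 on GRCm38, plus strand) encodes the platelet β-tubulin. It had 37.8, 64.8 and 46.8 CPM in NM1 KO 1 to 3, against 16.9, 18.3 and 22.3 CPM in NM1 WT 1 to 3. Every NM1 KO library lay above every NM1 WT library, and NM1 KO 2 was the highest. Means and SDs over 3 mice were 49.8 ± 13.8 CPM for NM1 KO and 19.2 ± 2.80 CPM for NM1 WT. The fitted log2 fold change was 1.38, with an SE of 0.21 and an adjusted p of 0.0165 (edgeR).

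Myl9 (ENSMUSG00000067818, chr2:156775420-156781658) encodes a regulatory light chain of myosin II, whose phosphorylation switches the motor on. Its levels were 123, 216 and 94.4 CPM in NM1 KO marrow and 46.0, 55.7 and 59.1 CPM in NM1 WT marrow. The genotypes did not overlap, and the NM1 KO values were more spread out. The log2 fold change was 1.43 (SE 0.25, adjusted p = 0.0313, edgeR).

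Cavin2 (ENSMUSG00000045954, chr1:51289126-51302960) encodes a coat protein that binds phosphatidylserine and shapes caveolar membrane. It had 69.2, 114 and 58.0 CPM in NM1 KO marrow and 31.5, 33.7 and 41.4 CPM in NM1 WT marrow. Again no NM1 KO library fell within the NM1 WT range. The log2 fold change was 1.18 (SE 0.23, adjusted p = 0.0409, edgeR).

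Tuba8 (ENSMUSG00000030137, chr6:121210696-121226854) encodes an α-tubulin isotype, the partner class of the β-tubulins in the microtubule lattice. It had 17.9, 21.1 and 19.1 CPM in NM1 KO marrow and 17.6, 22.9 and 12.8 CPM in NM1 WT marrow. NM1 WT held both the highest and the lowest of the 6 values. Its 95% interval for the log2 fold change, -0.35 to 0.60, lay below those of Tubb1 (0.93 to 1.82), Myl9 (0.88 to 1.98) and Cavin2 (0.69 to 1.67). The differences between these genes were not themselves tested. An antisense gene, Gm15856, overlaps 16.3% of the exon bases of Tuba8 and had means of 0.334 CPM in NM1 KO marrow and 0.457 CPM in NM1 WT marrow.

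**Figure D1:**
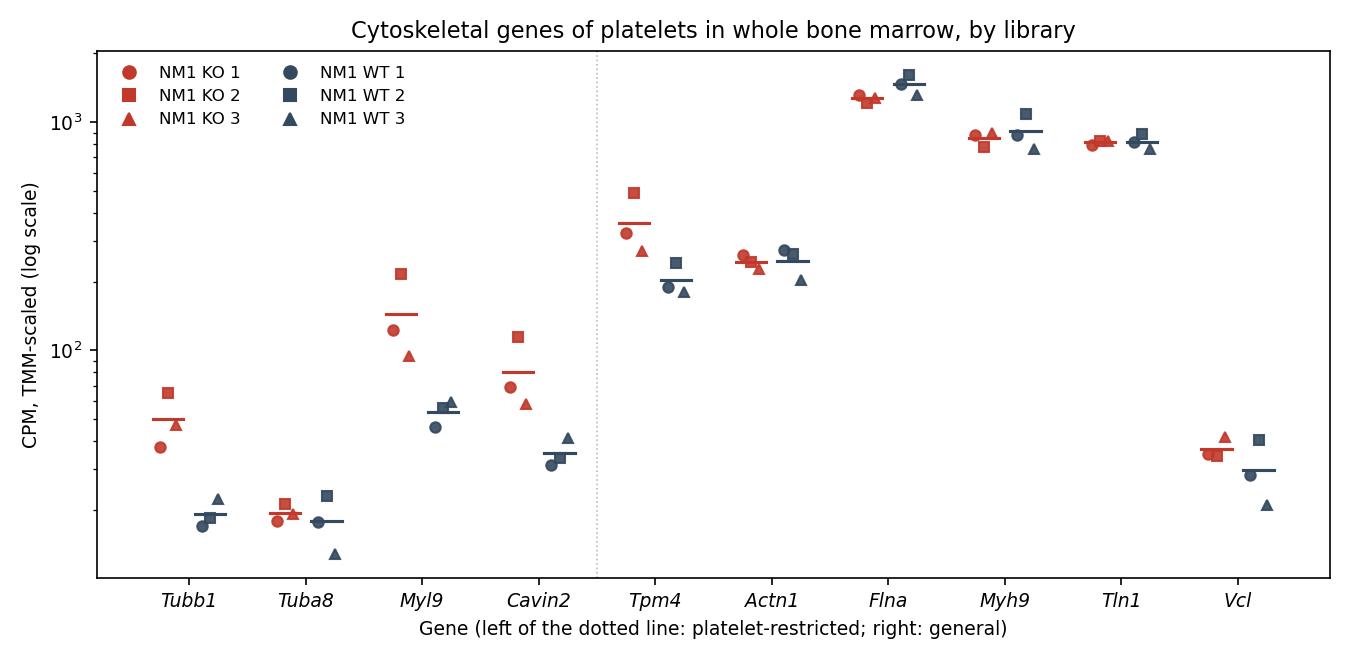
CPM after TMM scaling (log axis) of the 10 genes in each library, NM1 KO in red and NM1 WT in dark blue, with a bar at the mean of 3 mice and a marker shape for each replicate number. Tubb1, Myl9, Cavin2 and Tpm4 show no overlap between the genotypes, whereas Tuba8, Actn1, Flna, Myh9, Tln1 and Vcl do overlap.

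The bases upstream of Tubb1, Myl9 and Cavin2 are given because these 3 genes moved together, and those of Vcl because it shares a motif with Myl9 but did not pass. They are RefSeq promoter windows on GRCm38.p6, up to 250 bases before the RefSeq start and ending where the GENCODE gene begins, if that comes first. Capitals mark a CArG box, the site of serum response factor, which is known to drive actin and myosin genes together with its cofactor MRTF. The windows are chr2:174450345-174450594 (Tubb1), chr2:156775214-156775419 (Myl9), chr1:51288876-51289125 (Cavin2) and chr14:20929148-20929397 (Vcl), all on the plus strand.
Tubb1: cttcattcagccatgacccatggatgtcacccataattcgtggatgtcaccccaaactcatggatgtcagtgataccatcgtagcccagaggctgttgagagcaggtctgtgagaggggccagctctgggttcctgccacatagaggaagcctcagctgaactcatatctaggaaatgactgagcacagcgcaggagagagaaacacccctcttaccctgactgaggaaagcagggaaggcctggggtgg
Myl9: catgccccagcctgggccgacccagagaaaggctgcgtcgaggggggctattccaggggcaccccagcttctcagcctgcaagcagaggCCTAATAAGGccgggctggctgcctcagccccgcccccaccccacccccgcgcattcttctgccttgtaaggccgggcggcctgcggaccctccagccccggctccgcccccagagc
Cavin2: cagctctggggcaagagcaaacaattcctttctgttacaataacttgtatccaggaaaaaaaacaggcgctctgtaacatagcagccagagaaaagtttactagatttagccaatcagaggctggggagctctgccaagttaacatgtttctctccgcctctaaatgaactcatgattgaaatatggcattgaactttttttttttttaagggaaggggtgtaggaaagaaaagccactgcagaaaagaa
Vcl: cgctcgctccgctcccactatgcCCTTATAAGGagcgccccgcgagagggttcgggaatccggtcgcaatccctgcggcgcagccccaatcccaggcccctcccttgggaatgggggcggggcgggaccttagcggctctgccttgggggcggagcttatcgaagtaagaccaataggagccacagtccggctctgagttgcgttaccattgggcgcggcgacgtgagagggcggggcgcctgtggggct
Over the 250 bases before the RefSeq start of each of the 10 genes, on both strands, a CArG box was found in 2 promoters. That of Myl9 (CCTAATAAGG) began 161 bases and that of Vcl (CCTTATAAGG) 227 bases before the start. Such a box is present in 1.47% of 32851 RefSeq promoter windows of the same length. The GATA motifs AGATAA and TGATAA, the sites of GATA1, were found in 0 of the 10, against 16.6% of all windows. The AP-1 and NF-E2 core TGANTCA was also found in 0, against 6.75%, and the ETS motif GGAAGT in 2, Actn1 and Tln1, against 19.7%. No match overlapped another motif. The windows of Tpm4 and Flna lie wholly inside the GENCODE gene, and so does the ETS match of Tln1. These matches describe letters in the windows and not binding.

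The general genes came next. Tpm4 (ENSMUSG00000031799, chr8:72134975-72153142) encodes a tropomyosin that coats actin filaments and is abundant in platelets. It had 325, 490 and 271 CPM in NM1 KO marrow and 189, 240 and 180 CPM in NM1 WT marrow. The ranges did not overlap, and NM1 KO 2 was again the highest. The log2 fold change of 0.83 (SE 0.20) had an adjusted p of 0.0849 in edgeR's test and did not pass.

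Flna (ENSMUSG00000031328, chrX:74223461-74249820, minus strand) encodes filamin A, which crosslinks actin and anchors the glycoprotein Ib complex to it. Its levels were 1318, 1213 and 1278 CPM in NM1 KO marrow and 1468, 1613 and 1318 CPM in NM1 WT marrow, so that the highest NM1 KO and the lowest NM1 WT value met. Flna is X-linked, and it was lower in NM1 KO both among the libraries with Y-linked transcripts and among those without. The log2 fold change was -0.21 (SE 0.13, 95% interval -0.48 to 0.07).

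Myh9 (ENSMUSG00000022443, chr15:77760587-77842175), the heavy chain of non-muscle myosin IIA and the motor that Myl9 serves, had 879, 775 and 898 CPM in NM1 KO marrow and 880, 1090 and 762 CPM in NM1 WT marrow. The NM1 KO values lay within the NM1 WT range, and the 95% interval of the log2 fold change was -0.42 to 0.23. Tln1 (ENSMUSG00000028465, chr4:43531519-43562691) encodes talin 1, which ties integrins to actin and switches them on. It had 796, 828 and 829 CPM in NM1 KO marrow and 814, 886 and 764 CPM in NM1 WT marrow, with an interval of -0.27 to 0.25. Actn1 (ENSMUSG00000015143, chr12:80167547-80260371), an α-actinin that bundles actin, had 261, 244 and 228 CPM in NM1 KO marrow and 275, 263 and 203 CPM in NM1 WT marrow, with an interval of -0.32 to 0.29. The values of these 3 genes overlapped in full, and their intervals exclude a rise of the size fitted for Cavin2.

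Vcl (ENSMUSG00000021823, chr14:20929398-21033676) encodes vinculin, which reinforces the link of talin to actin. It had 35.0, 34.3 and 41.5 CPM in NM1 KO marrow and 28.5, 40.3 and 21.0 CPM in NM1 WT marrow. NM1 WT 2 lay inside the NM1 KO range and the other NM1 WT libraries below it. The log2 fold change was 0.30 (SE 0.21, 95% interval -0.16 to 0.76). Of its exon bases, 25.5% are shared with Ap3m1 on the opposite strand. No strand setting is given, so reads of this stretch cannot be told apart. Creb3 overlaps 3.67% of the exon bases of Tln1 and Gm26586 6.08% of those of Tpm4. Ap3m1, looked up for its overlap, had 38.1 ± 4.71 CPM in NM1 KO marrow and 37.5 ± 0.765 CPM in NM1 WT marrow.

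**Figure D2:**
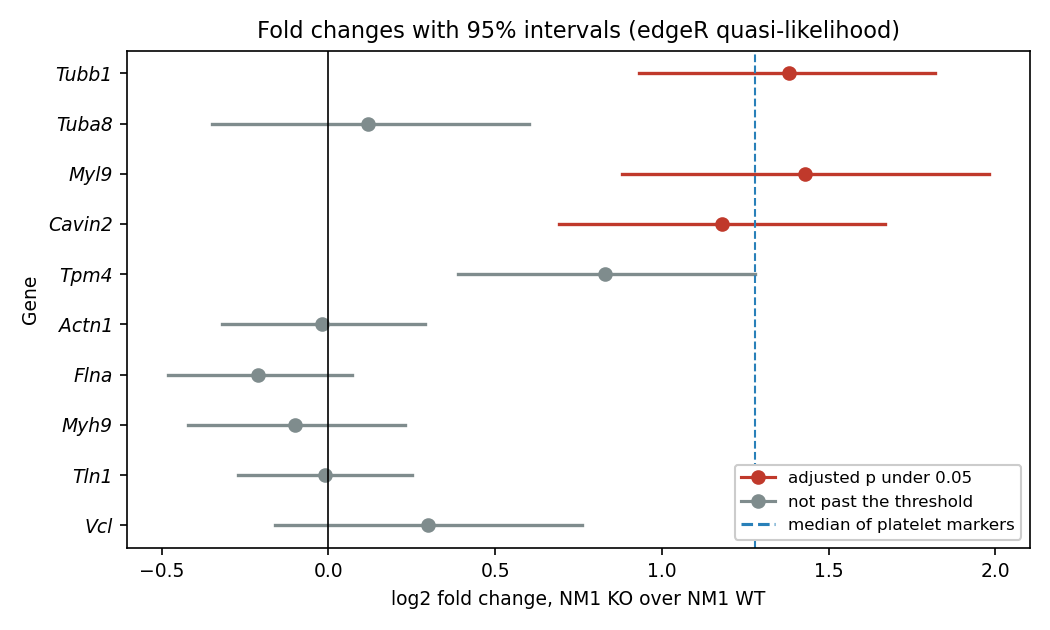
Log2 fold change of each gene, NM1 KO over NM1 WT, as a point with its 95% interval from edgeR's quasi-likelihood fit, red where the adjusted p is under 0.05. The dashed line marks 1.28, the median over 22 platelet markers. It falls inside the intervals of Tubb1, Myl9 and Cavin2, at the upper bound of Tpm4 (1.28), and beyond those of the other 6 genes.

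Counts of calls rested on single libraries. Of the 10 genes, 3 passed with all libraries, but 0 without NM1 WT 1 and 1, Tubb1, without NM1 WT 3. Without NM1 WT 1 the adjusted p of Tubb1 was 0.0864. Without NM1 KO 2, the highest library for all 3 genes, Tubb1 and Myl9 passed and Cavin2 had a log2 fold change of 0.84 (adjusted p = 0.083, edgeR). Among libraries with Y-linked transcripts, Tubb1 had 37.8 and 64.8 CPM in NM1 KO marrow and 18.3 CPM in NM1 WT marrow. Among those without, it had 46.8 CPM in NM1 KO marrow and 16.9 and 22.3 CPM in NM1 WT marrow. Myl9 and Cavin2 were likewise higher in NM1 KO within each set. With a term for Y-linked transcripts in the fit, Tubb1 alone of the 10 genes passed, and Tubb1 was also the sole one with limma-voom. Cavin2 further missed the threshold with upper-quartile scaling (adjusted p = 0.0527, edgeR) and without NM1 WT 2 (adjusted p = 0.0544). Tpm4 passed with DESeq2 (adjusted p = 0.00243), with no filter on low counts and without NM1 KO 3 (adjusted p = 0.0339, edgeR).

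The classes were set side by side within each library. The mean log2 CPM of the 4 platelet-restricted genes minus that of the 6 general genes was -2.93, -2.33 and -2.96 in NM1 KO and -3.73, -3.73 and -3.32 in NM1 WT. All NM1 KO values were higher, with means of -2.74 ± 0.36 and -3.59 ± 0.24 in NM1 KO and NM1 WT. The median log2 fold change was 1.28 for the platelet-restricted genes and -0.01 for the general genes, against 0.002 over all tested genes. These are descriptions of a chosen list and carry no test. The classes were not uniform, since Tuba8 stood with the general genes and Tpm4 between the classes.

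Correlations of log2 CPM across the 6 libraries are given as a description only. The libraries fall into genotypes, so these correlations restate the genotype differences in the same values. Pearson's r was 0.99 between Myl9 and Cavin2, 0.95 between Tubb1 and Myl9, and 0.96 between Myl9 and Tpm4. Tuba8 followed Tln1 (r = 0.92) and Vcl (r = 0.89) and had r = 0.25 with Tubb1. Flna had r = -0.85 with Tubb1 and 0.81 with Myh9.

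Genes with the most similar pattern to Tubb1 among 13049 protein-coding genes were Kitl (r = 0.9935), Clca3a1 (0.9906), Fgfrl1 (0.9904), Col1a2 (0.9904) and Alox12 (0.9902). Of these, Alox12 encodes the platelet 12-lipoxygenase, Kitl the stem cell factor of marrow stroma, and Col1a2 a chain of type I collagen. Those most like Flna were Ifit1bl2 (0.9956), Ampd2 (0.9950), Pkm (0.9936), Arpc1b (0.9923) and Sept5 (0.9916). Arpc1b encodes a subunit of the Arp2/3 complex, which nucleates branched actin, and Pkm pyruvate kinase.

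Markers of the megakaryocyte lineage gave the frame for these levels. Of 22 such genes with no cytoskeletal member, 17 rose, 0 fell and the other 5 missed the threshold, and the median over all 22 was 1.28 on the log2 scale. The count of 17 depended on single libraries and on the tool: with NM1 WT 1 left out 3 rose, and with NM1 WT 3 left out also 3. Leaving out NM1 KO 2 gave 8, limma-voom 7 and the term for Y-linked transcripts 8, and 0 fell in each. Their summed level was 3754, 6562 and 3072 CPM in NM1 KO marrow and 1566, 1780 and 1904 CPM in NM1 WT marrow. NM1 KO 2 was the highest, as for Tubb1, Myl9, Cavin2 and Tpm4. The list includes Mpig6b, Clec1b, Mmrn1 and Itgb3, which rose by 1.31, 1.52, 1.77 and 1.16 on the log2 scale, and Itga2b, the αIIb integrin gene, whose 0.74 did not pass (adjusted p = 0.115, edgeR).

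Relative to the markers of the same library, Tubb1, Myl9 and Cavin2 overlapped between genotypes. The log2 CPM of Tubb1 minus the mean log2 CPM of the 22 markers lay between -1.12 and -0.61 in NM1 KO and between -1.17 and -0.89 in NM1 WT. For Myl9 these differences were 0.58, 0.65 and 0.40 in NM1 KO and 0.44, 0.43 and 0.51 in NM1 WT. The mean of the markers was itself 1.26 higher in NM1 KO, so a gene with no change between genotypes comes out lower on this scale. For Flna the difference was 4.00, 3.14 and 4.15 in NM1 KO and 5.44, 5.28 and 4.99 in NM1 WT, with no overlap.

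Tuba8, Tpm4, Actn1, Myh9 and Tln1 were also lower in every NM1 KO than in every NM1 WT library on this scale, and Vcl overlapped. For Tpm4 the differences were narrow in NM1 KO (1.98, 1.83 and 1.92) and wider in NM1 WT (2.48, 2.53 and 2.12). The choice of marker moved these values. Set against Itga2b alone, NM1 KO minus NM1 WT was 0.63 for Tubb1 and 0.63 for Myl9 in place of 0.08 for each, 0.41 for Cavin2 in place of -0.14, and 0.09 for Tpm4 in place of -0.46. For Tuba8 it was -0.56 in place of -1.11 and for Flna -0.92 in place of -1.47.

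**Figure D3:**
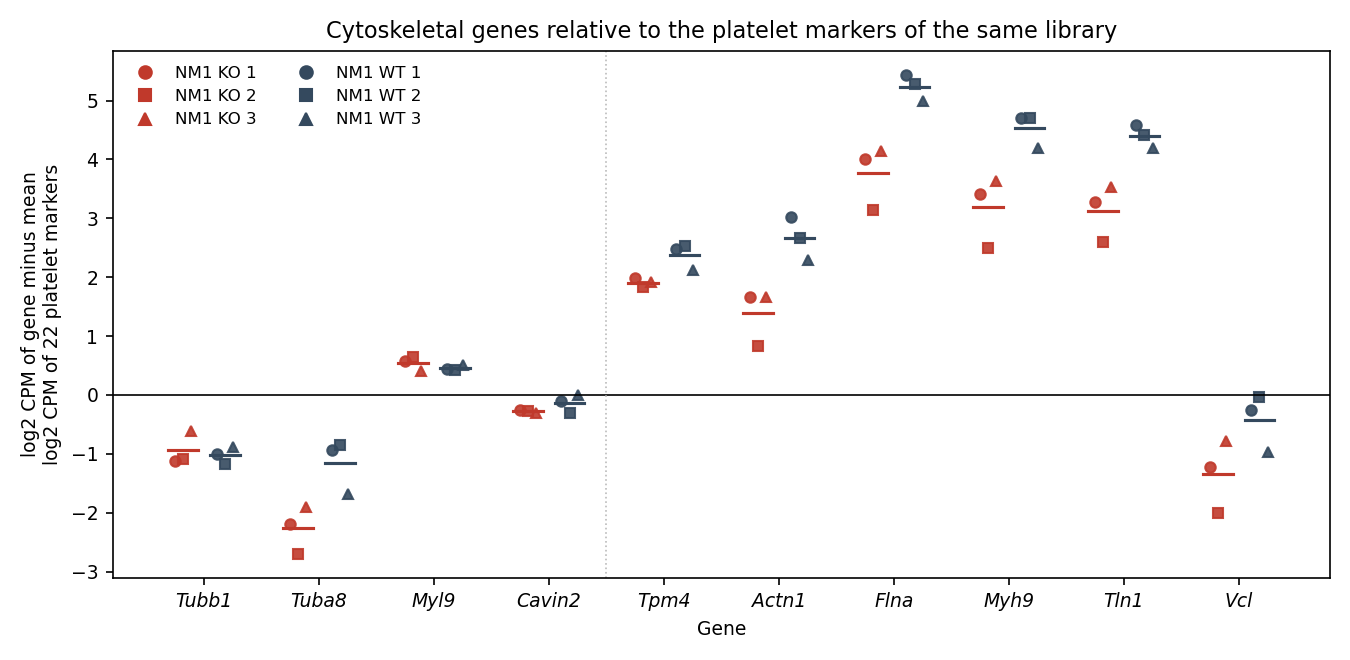
Log2 CPM of each gene minus the mean log2 CPM of 22 platelet markers in the same library, with bars at the mean of 3 mice per genotype. Tubb1, Myl9 and Cavin2 keep their place (NM1 KO minus NM1 WT means of 0.08, 0.08 and -0.14), while Flna, Myh9 and Tln1 lie lower in NM1 KO, with differences of -1.47, -1.35 and -1.27. The marker mean is itself 1.26 higher in NM1 KO, so a gene with no change lies lower here.

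Levels can be compared between genes only per length, here as RPKM, the CPM per kilobase of a gene's merged exons. In NM1 KO the order was Tpm4 (164 ± 51.8), Flna (135 ± 5.64), Myl9 (124 ± 54.7), Tln1 (83.4 ± 1.93), Myh9 (65.8 ± 5.10), Actn1 (44.2 ± 3.01), Tubb1 (35.4 ± 9.79), Cavin2 (26.3 ± 9.75), Tuba8 (8.57 ± 0.706) and Vcl (4.51 ± 0.481), as mean RPKM ± SD over 3 mice. In NM1 WT it was Flna (156 ± 15.7), Tpm4 (92.1 ± 14.7), Tln1 (83.8 ± 6.23), Myh9 (70.4 ± 12.9), Myl9 (46.1 ± 5.86), Actn1 (44.7 ± 7.02), Tubb1 (13.6 ± 1.99), Cavin2 (11.6 ± 1.70), Tuba8 (7.86 ± 2.25) and Vcl (3.66 ± 1.19). Some neighbours in these orders had ranges that overlapped among the mice. In NM1 KO these were the run from Tpm4 to Tln1 and the run from Actn1 to Cavin2. In NM1 WT they were the run from Tpm4 to Myh9, the pair Myl9 and Actn1, and the pair Tubb1 and Cavin2. Ranges leave out that the genes were measured in the same libraries. Within each library of both genotypes Tubb1 was above Cavin2, and within each NM1 WT library Tpm4 was above Tln1 and Tln1 above Myh9. For the other neighbours named, the order changed between libraries. Myl9 stood in the third place in NM1 KO and in the fifth in NM1 WT.

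Within its family, the share of each gene was taken as its RPKM over the summed RPKM of the family. Myl9 made up 39.8%, 58.3% and 34.9% of the 3 light chain genes (with Myl12a and Myl12b) in NM1 KO and 17.0%, 19.7% and 22.6% in NM1 WT. The order of Myl9 and Myl12b differed among the NM1 KO libraries: Myl9 was higher in NM1 KO 2 (186 against 83.3 RPKM), Myl12b in NM1 KO 3 (98.1 against 81.3 RPKM), and in NM1 KO 1 they were equal to 3 significant digits. In all 3 NM1 WT libraries Myl12b was higher, with a mean share of 55.4%. Myl12b itself was lower in every NM1 KO than in every NM1 WT library and did not pass (log2 fold change -0.44, adjusted p = 0.128, edgeR). The share of Myl9 thus reflects both genes. Tubb1 made up 5.52%, 8.91% and 4.95% of 8 β-tubulins in NM1 KO and 2.35%, 2.30% and 2.96% in NM1 WT. The ubiquitous Tubb5 held most of that family, 53.4% in NM1 KO and 57.8% in NM1 WT, and did not pass (log2 fold change -0.06).

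Tpm4 held 54.5%, 63.1% and 52.0% of 4 tropomyosins in NM1 KO and 42.4%, 47.6% and 43.1% in NM1 WT, again without overlap. Tpm3 held 25.4% in NM1 KO and 41.2% in NM1 WT. Its own level was lower in every NM1 KO than in every NM1 WT library and did not pass (log2 fold change -0.28, adjusted p = 0.292, edgeR). Cavin2 held 40.2%, 43.5% and 45.8% of 3 cavins in NM1 KO and 34.4%, 41.1% and 37.3% in NM1 WT, which overlapped. The relatives of Cavin2, Cavin1 and Cavin3, had log2 fold changes of 0.86 and 0.77, and neither passed. Tuba8 held 1.34% of 5 α-tubulins in NM1 KO and 1.29% in NM1 WT. Flna, Myh9 and Tln1 were close to the sole forms of their families, with 97.8%, 94.9% and 99.7% in NM1 KO and 96.1%, 94.2% and 99.8% in NM1 WT. An exact permutation test of 3 mice against 3 cannot give a p below 0.1, so no test is attached to a share. Tubulin and actin families have near-identical coding parts and pseudogene copies, and how shared reads were counted is not given, so these shares are uncertain.

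**Figure D4:**
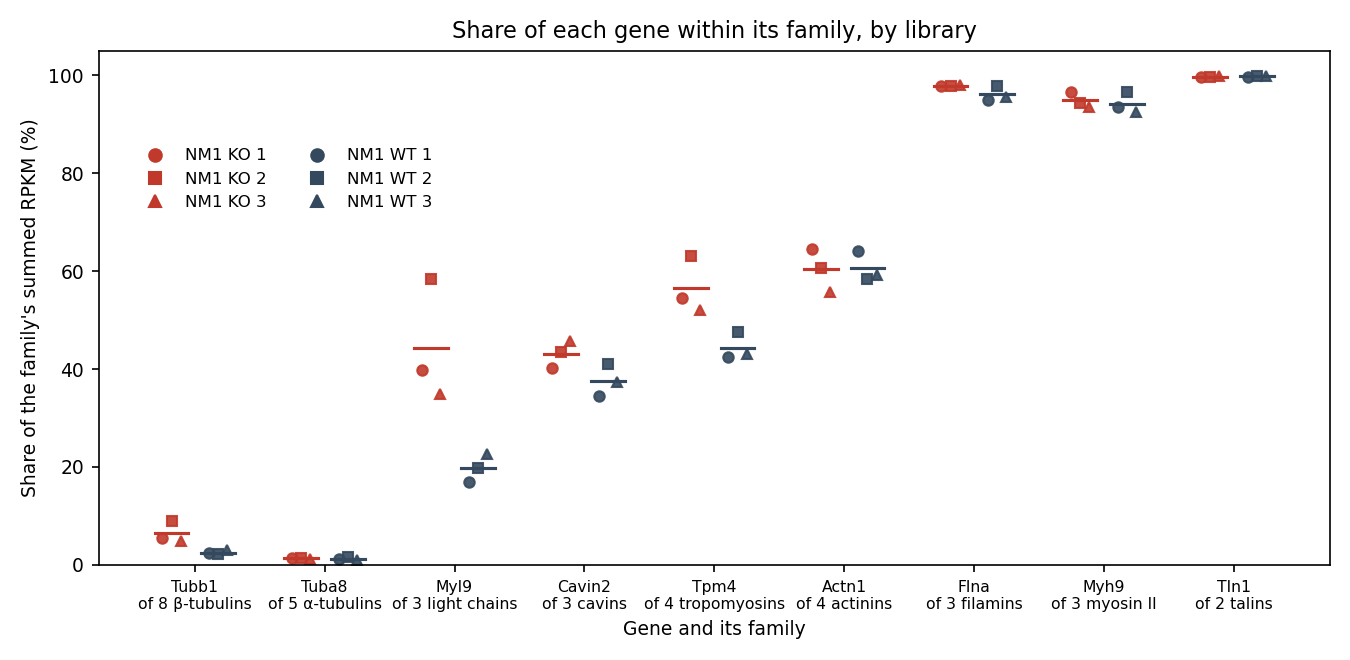
Share of each gene in the summed RPKM of its family, in percent, by library, with bars at the mean of 3 mice per genotype. The shares of Myl9, Tpm4 and Tubb1 lie higher in all NM1 KO libraries, those of Cavin2, Tuba8 and Actn1 overlap, and Flna, Myh9 and Tln1 sit above 92% in each library.

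Beyond these 10 genes, 122 others, of the same machinery and of transcription factors, were listed in 7 groups, and 120 of them were tested. Of these 1 rose, 0 fell and the median log2 fold change was 0.01, with 62 positive and 58 negative values. The 1 gene is 0.833% of the 120, near the 0.776% of all tested genes. With DESeq2 11 passed, 7 as higher and 4 as lower, which is 9.17% of the 120 against 5.26% of all genes that DESeq2 tested, and with limma-voom 0 passed. At an unadjusted p under 0.05 there were 30 of the 120, against 16.8% of all tested genes. The gene that rose was Tpm2, a tropomyosin of smooth and slow skeletal muscle, with 63.5, 98.9 and 49.2 CPM in NM1 KO marrow and 31.2, 26.0 and 25.4 CPM in NM1 WT marrow (log2 fold change 1.36, SE 0.22, adjusted p = 0.0262, edgeR). Its genotypes did not overlap. It missed the threshold with limma-voom, with the term for Y-linked transcripts, without NM1 WT 1 and without NM1 WT 3.

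Of 13 tested tubulins other than Tubb1 and Tuba8, 0 passed, with a median of 0.03. Tubb2a, a β-tubulin, had a log2 fold change of 0.40 and Tubb6, a β-tubulin, -0.76 (adjusted p = 0.209 and 0.227, edgeR). Of 18 microtubule regulators 0 passed, with a median of 0.07. Dctn1, the large dynactin subunit, had -0.37 and Kif2a, a microtubule-depolymerising kinesin, 0.27.

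Of 19 other actomyosin genes only Tpm2 passed, with a median of -0.04. Of 33 genes of actin assembly and turnover 0 passed, with a median of -0.15 and 20 negative values. Coro1a, a coronin of leukocytes, had 1433 ± 229 CPM in NM1 KO marrow and 2261 ± 171 CPM in NM1 WT marrow (adjusted p = 0.0598, edgeR). Arpc2, a subunit of the Arp2/3 complex, had a log2 fold change of -0.50 (adjusted p = 0.0889, edgeR). Neutrophil genes, listed as markers of the main marrow cell type, had negative log2 fold changes in 10 of 10 cases and 0 passed. Lcn2 and Mmp9, which encode granule proteins, had -0.72 and -0.65 (adjusted p = 0.0879 and 0.15, edgeR). The part of neutrophils in the values of the actin genes was not tested.

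Of 10 tested genes that link integrins to actin 0 passed, with a median of 0.01. Ilk itself was listed at 0.300 ± 0.127 CPM for NM1 KO and 0.381 ± 0.130 CPM for NM1 WT and was not tested. Of its exon bases 76.7% are shared with Taf10 on the opposite strand, and how reads of such stretches were counted is not given, so this value does not give the level of Ilk. Parvb and Lims1, which encode β-parvin and PINCH1 of the complex around integrin-linked kinase, had log2 fold changes of 0.68 and 0.51 (adjusted p = 0.0743 and 0.127, edgeR). In both genes all NM1 KO values lay above all NM1 WT values. Of 14 genes of the membrane skeleton and membrane folding 0 passed, with a median of 0.09. Of 13 transcription factors of megakaryocytes and of the actin program 0 passed, with a median of 0.13. Tal1, a factor of the erythroid and megakaryocyte lineages, had 0.62 (adjusted p = 0.0977, edgeR) and Gfi1b, a repressor of the same lineages, 0.48.

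**Figure D5:**
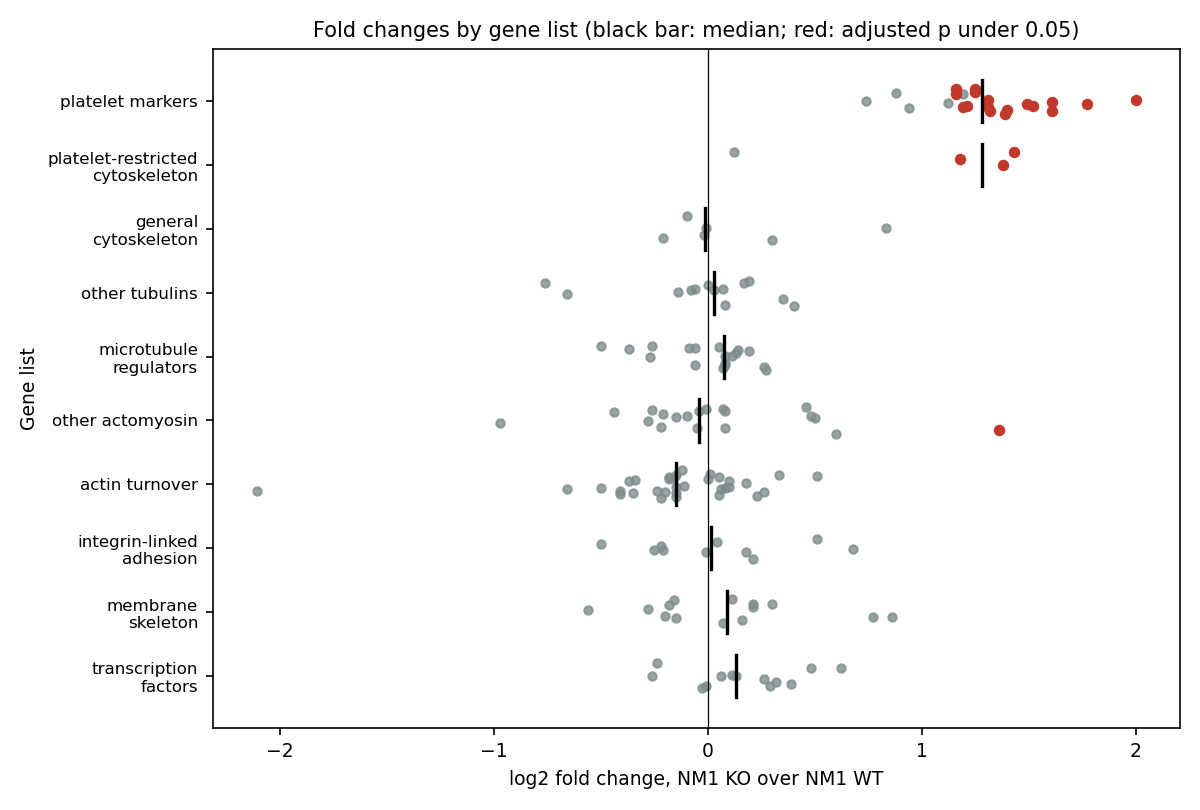
Log2 fold changes, NM1 KO over NM1 WT, of the tested genes of 10 lists, with a black bar at each list's median and red points at an adjusted p under 0.05. The platelet markers spread from 0.74 to 2.00 around a median of 1.28, and 3 of the 4 platelet-restricted genes lie between 1.18 and 1.43. The medians of the general genes and of the 7 other lists, of cytoskeletal genes and of transcription factors, lie between -0.15 and 0.13.

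Other cells of the marrow cavity also express some of these genes, in particular Myl9 in smooth muscle and Cavin2 in endothelium and fat. Of 10 tested smooth muscle and pericyte markers 0 passed, 7 had positive and 3 negative log2 fold changes, and the median was 0.47. Their summed level over 12 listed genes was 124 to 189 CPM in NM1 KO marrow and 103 to 132 CPM in NM1 WT marrow. Abcc9 and Pdgfrb, of pericytes, had log2 fold changes of 1.67 and 1.22 (adjusted p = 0.0548 and 0.0786, edgeR). In 4 markers (Abcc9, Pdgfrb, Kcnj8 and Notch3) all NM1 KO values lay above all NM1 WT values, and in 2 (Acta2 and Tagln) all lay below. The contractile genes Acta2, Tagln and Myh11 gave the 3 negative values, of -0.76, -0.79 and -0.49. Other than Abcc9 and Pdgfrb, these genes were named after their values were seen.

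Of 12 endothelial markers 1 rose, Esam, and the summed level was 222 to 311 CPM in NM1 KO marrow and 147 to 215 CPM in NM1 WT marrow. Of 6 tested adipocyte markers 1 rose, Cfd, with sums over 8 listed genes of 266 to 589 CPM in NM1 KO marrow and 120 to 279 CPM in NM1 WT marrow, and Lep was listed at 0 in all libraries. Of 9 stromal markers 6 rose, among them Col1a2, Cxcl12, Kitl and Lepr (log2 fold changes of 2.08, 1.40, 1.45 and 1.26), with sums of 1255 to 2084 CPM in NM1 KO marrow and 576 to 690 CPM in NM1 WT marrow. Of 8 tested skeletal muscle markers 4 rose, Tnnt3, Tnni2, Myl1 and Acta1 (log2 fold changes of 2.35, 1.54, 3.22 and 2.42), with sums over 10 listed genes of 61.2 to 77.1 CPM in NM1 KO marrow and 15.7 to 25.0 CPM in NM1 WT marrow, and Tnnc2, which shares 74.0% of its exon bases with Ube2c on the opposite strand, was listed at 0. All tested endothelial, adipocyte, stromal and skeletal muscle markers had positive log2 fold changes, with medians of 0.75, 1.19, 1.20 and 2.36. All NM1 KO values lay above all NM1 WT values in 5 of 12, 5 of 6, 9 of 9 and 7 of 8 of them. This was so for 10.8% of all tested genes. NM1 KO 2 had the highest sum of the smooth muscle, endothelial, adipocyte and stromal lists, as it had for the platelet markers. The part of these cells in the rise of Myl9, Cavin2 and Tpm2 was not tested.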

How the data were processed

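The authors deposited raw read counts per Ensembl gene, 1 file per mouse, with no normalisation. The submitters' processing notes name HTSeq, HISAT2 (version 2.0.4), SAMtools (0.1.19), FastQC and Trimmomatic (0.36), with the builds GRCm38 and mm10. Not given in the sources used here: annotation release, strand setting and handling of shared reads. Low counts were nearly all even (2417 genes at a count of 2 and 6 at 1 in NM1 KO 1), so both mates of a pair appear to be counted.

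Of 46603 genes, 46091 matched GENCODE M21. Counts were kept by filterByExpr (minimum count 10), TMM-scaled and tested with edgeR 4.0.16 (R 4.3.3), genotype as the only term, over 15069 genes. Log2 CPM used a prior count of 2. SE and 95% intervals come from the quasi-likelihood F statistic, and SDs are over 3 mice. Precision is limited by that number. The intervals refer to the difference between genotypes, with the spread between mice estimated from these libraries. RPKM used merged exon lengths. Alternatives used limma 3.58.1 and DESeq2 1.42.0, among others. The pipeline was first tested on simulated data, in which every gene had the same relative spread between mice. Of genes simulated with a 2-fold change 31% passed in the right direction, and of those with a 4-fold change 92%. That spread was a fixed setting and was not fitted to each gene. The percentages therefore need not hold for the members, whose SEs ran from 0.12 to 0.25. A gene that did not pass may still differ.

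The members and lists were chosen with earlier results of these data known, and the family shares after seeing the data. Named genes are the 10 members, Myo1c, their family relatives, and of each list the genes past the threshold (at most 4) or else the 2 of smallest p, plus the 5 most like Tubb1 and the 5 most like Flna. Named outside this rule, after their values were seen, are Ilk, Lep, Tnnc2, the smooth muscle genes Kcnj8, Notch3, Acta2, Tagln and Myh11, and genes that overlap a named gene. Itga2b is named as the single-marker alternative. Sequences are from RefSeq, in whose promoter table all 10 members matched.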

Additional observations from a re-analysis of the deposited data

How the results depend on the processing

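Of the 10 genes, 3 passed in the reported fit. Tubb1 passed under 16 of 17 alternatives, Myl9 under 13, Cavin2 under 10 and Tpm4 under 4, and the log2 fold changes of these 4 stayed positive in all 17 (1.14 to 1.54, 1.02 to 1.66, 0.84 to 1.37 and 0.56 to 1.00). The number of the 10 genes that passed was 1 with limma-voom, 1 with a term for Y-linked transcripts, and 0 to 4 with each library left out. Over all tested genes 117 passed (89 up, 28 down), against 1138 with no low-count filter, 784 with DESeq2, 37 with limma-voom, 60 with the Y-linked term and 26 to 344 with each library left out. The split was 621 up and 517 down with no filter, 401 and 383 with DESeq2, 23 and 14 with limma-voom, and 138 and 206 without NM1 WT 2. Of the other cytoskeletal genes and transcription factors 1 passed, against 15 with no filter, 11 with DESeq2, 0 with limma-voom, 0 with the Y-linked term and 0 to 4 with a library left out.

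Replicate numbers share no stated origin. Deviations of same-numbered libraries correlated at 0.0636, 0.115 and 0.0609, and each NM1 KO library correlated best with its own number. The deviations were centred within each genotype, which forces some of the correlations between libraries to be positive. With 3 mice per genotype the match cannot show a pairing, and the design gives none. With the replicate block 421 genes passed, 4 of the 10 genes (Tpm4 in addition, adjusted p = 0.0131) and 5 of the other cytoskeletal genes and transcription factors.

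Values near 0 changed sign. With each library left out, Tuba8 ranged over -0.07 to 0.35, Actn1 over -0.15 to 0.07, Myh9 over -0.22 to 0.06 and Tln1 over -0.06 to 0.06. With library totals Actn1 was 0.03 and Tln1 0.03, and with no filter Tln1 was 0.01. None of these passed, and the cause was not tested. The difference between the classes, 0.85 on the log2 scale, kept its sign in each alternative run. The members had at least 195 counts in every library, and the part of depth in the width of their intervals was not tested.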
